A study of Homo sapiens with 3 samples.

Results

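SOX4-only peaks inside protein-coding gene bodies were regions where a SOX4 antibody recovered more chromatin fragments than IgG and where no STAT6 peak overlapped by a single base. They were selected from the SOX4 peak list of Hep3B cells by the position of the summit, the point of highest signal, which had to lie inside a RefSeq protein-coding gene and more than 3000 bp from both ends of every protein-coding gene. Of the 4513 SOX4 peaks, 1116 met this rule, a share of 24.7% (Wilson 95% interval 23.5% to 26.0%). Another 231 SOX4-only peaks lay near gene ends and 2526 lay outside protein-coding genes, while 326 SOX4 peaks in gene bodies overlapped a STAT6 peak.

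Hep3B is an established human hepatocellular carcinoma cell line. Binding was mapped with CUT&RUN, in which an antibody tethers a nuclease to its target and the released DNA is sequenced, using 1 library for SOX4, 1 for STAT6 and 1 for IgG, a non-specific antibody. The libraries addressed which genes the factors share. With 1 library per antibody nothing below has a replicate check, no test was run, and every interval covers counting error over peaks or fragments only.

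SOX4 is a transcription factor with an HMG box, a domain that grips the minor groove of DNA and bends it. It is active in progenitor cells and is often raised in liver cancer. STAT6 is the transcription factor that carries the interleukin-4 signal into the nucleus. Peaks inside gene bodies can mark enhancers, internal promoters or other chromatin that the nuclease reaches, and a position inside a gene does not name the gene that a site acts on.

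Fold enrichment is the signal at the summit over the IgG background, and −log10 q is the strength of the call after correction for multiple testing. Because every peak was selected on the same SOX4 against IgG contrast, these values describe the peaks and support no claim of binding. A whole fragment count at the summit and an IgG background were solved from the deposited fold and −log10 p of each peak. The pair met both values for 4513 of 4513 SOX4 peaks and 1078 of 1078 STAT6 peaks. Whether another pair would also do so was not tested. The fragment counts given here are these solved values.

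An annotated start inside a gene body was found at the summit of 3 peaks. RefSeq gives 300 bases around each start, 250 before and 50 after, and the 3 windows that held a summit are shown because in that table no other gene-body peak had its summit at a start. The letters AACAAAG or AACAATG, the core of the SOX motif, were searched on both strands and are in capitals where found, as were TTC and GAA with any 4 bases between them for STAT6. Over all 35116 RefSeq windows of this length, 8.22% held the SOX letters and 6.44% the STAT6 letters.
ETFB, GRCh38.p14 chr19:51354793-51355092, minus strand: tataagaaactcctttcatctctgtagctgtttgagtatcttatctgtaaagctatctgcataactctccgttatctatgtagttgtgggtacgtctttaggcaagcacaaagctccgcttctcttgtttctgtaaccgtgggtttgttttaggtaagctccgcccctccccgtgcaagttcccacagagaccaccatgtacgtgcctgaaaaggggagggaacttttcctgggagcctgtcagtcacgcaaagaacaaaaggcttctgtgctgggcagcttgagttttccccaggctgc
CNIH3, GRCh38.p14 chr1:224616067-224616366, plus strand: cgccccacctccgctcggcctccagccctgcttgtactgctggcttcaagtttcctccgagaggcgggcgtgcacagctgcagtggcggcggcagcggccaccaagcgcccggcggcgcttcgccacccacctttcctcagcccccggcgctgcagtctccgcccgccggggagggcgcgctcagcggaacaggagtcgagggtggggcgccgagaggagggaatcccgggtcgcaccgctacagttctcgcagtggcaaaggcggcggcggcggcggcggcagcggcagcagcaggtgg
SCAT8, GRCh38.p14 chr6:63806586-63806885, plus strand: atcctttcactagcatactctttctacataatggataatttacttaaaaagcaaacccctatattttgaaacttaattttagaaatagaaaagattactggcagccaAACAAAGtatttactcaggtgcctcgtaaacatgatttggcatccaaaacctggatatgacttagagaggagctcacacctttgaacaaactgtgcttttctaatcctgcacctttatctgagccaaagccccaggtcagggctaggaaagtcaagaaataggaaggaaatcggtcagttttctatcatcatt

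The ETFB window, an internal start of the gene for a subunit of the electron transfer flavoprotein, lay under a peak with a fold of 22.96 and 125 fragments (104 to 149), whose summit was 39 bp after the start. CNIH3, an auxiliary protein of AMPA receptors, held a peak with a fold of 6.98 and 63 fragments and a summit 20 bp after an internal start. That window also overlapped the start of the antisense gene CNIH3-AS2 and was GC-rich, at 73.7% against a median of 58.7% over all windows. The summit lay in windows of CNIH3-AS2 as well. The window of SCAT8, a long noncoding RNA within EYS, lay under a peak with a fold of 2.87 and 24 fragments. Its summit was 124 bp before the start. Only the SCAT8 window held the SOX letters, on 1 occasion, and none of the 3 held the STAT6 letters. In all, 6 gene-body peaks overlapped a window. The windows of CLEC12B, C12orf76 and KHDC1, overlapped by a peak with its summit outside them, held neither set of letters. At peaks that overlapped no window the letters were not searched, as no genome sequence was used here. Exons were not searched at any peak.

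Most of these gene-body peaks were small. Their median fold enrichment was 5.83 (quartiles 3.87 and 9.48, range 2.34 to 73.6), and the median summit was covered by 34 fragments (quartiles 22 and 58, range 14 to 531). The IgG background stood at its floor of 4.49 fragments in 518 peaks (46.4%), so that in these the fold followed the SOX4 count alone. The median width was 862.5 bp (range 265 to 4036 bp). The median −log10 q was 14.2 (range 1.36 to 766).

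A minority stood far above the rest. A fold enrichment of at least 20 was reached by 105 of the gene-body peaks (9.41%), while the share over all SOX4 peaks was 19.3%. Among SOX4-only peaks near gene ends 30 reached it (13.0%), and among those outside genes 130 did (5.15%). Of the gene-body peaks that overlapped a STAT6 peak, 322 of 326 reached it (98.8%). Only 14 of the gene-body peaks without STAT6 overlap reached a fold of 50.

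**Figure D1:**
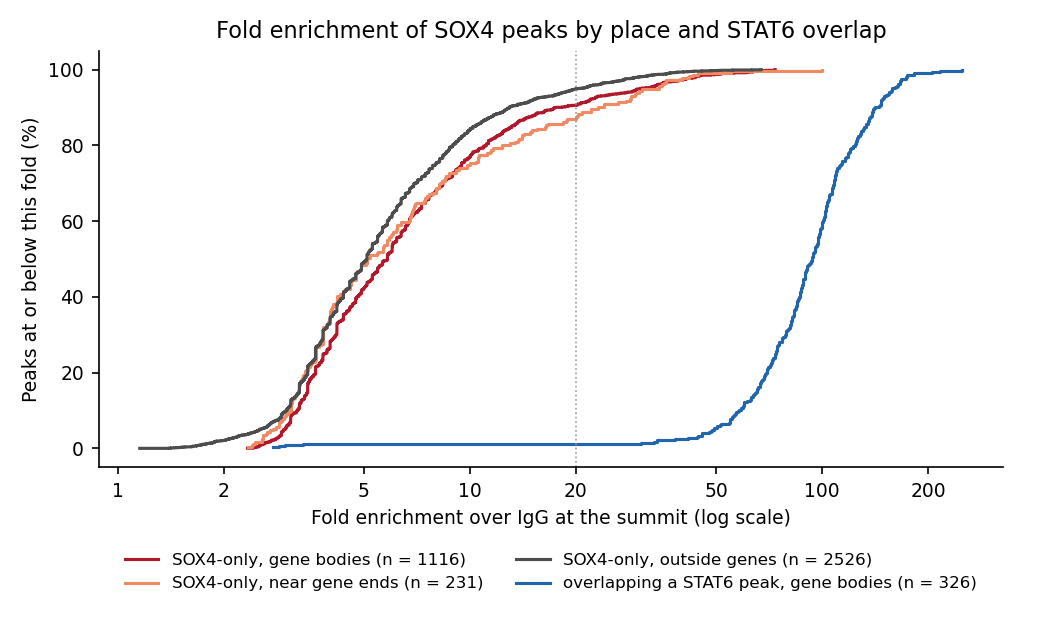
Cumulative share of peaks (%) against fold enrichment over IgG (log scale) for 4 classes of SOX4 peaks, with a dotted line at a fold of 20. The 3 SOX4-only curves lie close together, with medians of 5.83 in gene bodies, 5.103 near gene ends and 5.103 outside genes, and the curve of gene-body peaks that overlap a STAT6 peak lies far to the right with a median of 93.5.

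By place alone, SOX4-only peaks differed little. The median fold in gene bodies was 1.14 times that of peaks outside genes, with an interval of 1.05 to 1.22 from the 95% intervals of both medians, and 1.14 times that of peaks near gene ends, with an interval of 0.910 to 1.31. The interval for peaks near gene ends includes 1, and that ratio fell below 1 in 2 alternatives, to 0.988 once peaks under a −log10 q of 5 were dropped and to 0.989 with a margin of 1000 bp. The fragment medians were 34 in gene bodies, 33 near ends and 32 outside genes. The contrast with the gene-body peaks that overlapped a STAT6 peak was far larger. Their median fold of 93.5 was 16.03 times higher, their median of 588 fragments 17.3 times higher, and their median width of 1700.5 bp 1.97 times larger. Absence of a STAT6 peak is also bounded by the depth of that library. Its IgG background had a floor of 2.16 fragments, against 4.49 in the SOX4 list, and its weakest peak held 10 fragments, so a weaker STAT6 signal at these sites was not detectable at this depth.

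The lowest −log10 q, 1.36, was shared by peaks in UNC13C, CALN1 and ST7, each with 17 fragments and a fold of 2.53. UNC13C primes synaptic vesicles and CALN1 encodes a calmodulin-like protein. Just inside the margin lay a peak in PPP6R2, a subunit of protein phosphatase 6, at 3062 bp from a gene end with a fold of 3.40. The next, in DDT, encoding D-dopachrome tautomerase, lay at 3081 bp with a fold of 4.07. Just outside it lay a peak in LSS, the lanosterol synthase of cholesterol synthesis, at 2978 bp with a fold of 4.42, and a peak in SLCO1B3 at 2964 bp with a fold of 40.1.

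Of the 12 highest peaks, 5 lay in genes of the drug metabolism and transport list and 3 in genes of the ion channel list described below. Over the whole set of 1116 peaks these lists held 24 and 14. The lists were chosen with earlier results of these data known, and the ranking used the fold on which the peaks were called. The first was in CFTR, the chloride channel mutated in cystic fibrosis, at chr7:117587038-117588557 with a fold of 73.6 and 403 fragments (Poisson 95% interval 365 to 444). It was 80.9 kb from the nearest gene end and 1.75 kb from a STAT6 peak. A further CFTR peak at chr7:117554861-117556119 had a fold of 21.4 and 119 fragments (98.6 to 142), so the intervals of the CFTR peaks did not overlap.

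CES1, a liver carboxylesterase that cleaves ester drugs, held a peak at chr16:55805620-55807127 with a fold of 73.4 and 402 fragments. SLCO1B1, which takes up statins and bile acids into hepatocytes, followed at chr12:21224053-21225454 with a fold of 68.7 and 376 fragments. Its paralogue SLCO1B3 held one at chr12:20878824-20881647 with a fold of 66.7 and 365 fragments. TRPA1, the irritant-sensing cation channel, had the most fragments of any peak in the set, 531, over a raised IgG background of 7.15 fragments, and a fold of 65.3. Fold and fragments thus ranked this peak differently.

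Cytochrome P450 and ABC transporter genes came next. CYP3A43 held a peak with a fold of 63.8 and 349 fragments. ABCB1, the efflux pump P-glycoprotein, held one with a fold of 63.6 and 348 fragments at chr7:87560515-87562035, and ABCB4, which moves phosphatidylcholine into bile, one with a fold of 61.4 and 336 fragments at chr7:87407401-87408886. ASIC2, an acid-sensing sodium channel, had a fold of 61.1 and 391 fragments. The fatty acid hydroxylase genes CYP4F8 and CYP4F11 had folds of 56.4 and 52.0. These 11 genes all also held a STAT6 peak elsewhere along the gene.

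ZFX, an X-linked zinc finger transcription factor, was the exception among the 12 highest. Its peak at chrX:24209718-24211159 had a fold of 53.9 and 295 fragments, with no STAT6 peak nearer than 3653 kb.

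The set was therefore divided by what else lay at the peak or in its gene. This division was made after the values had been seen. Peaks at pseudogenes of HNRNPA1 and RPL23A were set apart first. Of the rest, peaks in a gene that also held a STAT6 peak numbered 57, in 32 genes, and had a median fold of 35.4 (range 3.46 to 73.6), with 41 at a fold of at least 20. Their median distance to a STAT6 peak was 6.48 kb, which follows in part from the way the group was formed. Peaks that touched a pseudogene of HNRNPA1 numbered 25, with a median fold of 29.5 (range 4.01 to 45.2) and 20 at a fold of at least 20. Peaks that touched a pseudogene of RPL23A numbered 15, with a median fold of 21.5 (range 7.84 to 35.0) and 8 at a fold of at least 20. The other 1019 peaks (91.3%) had a median fold of 5.42 and 32 fragments, and 36 of them reached a fold of 20.

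**Figure D2:**
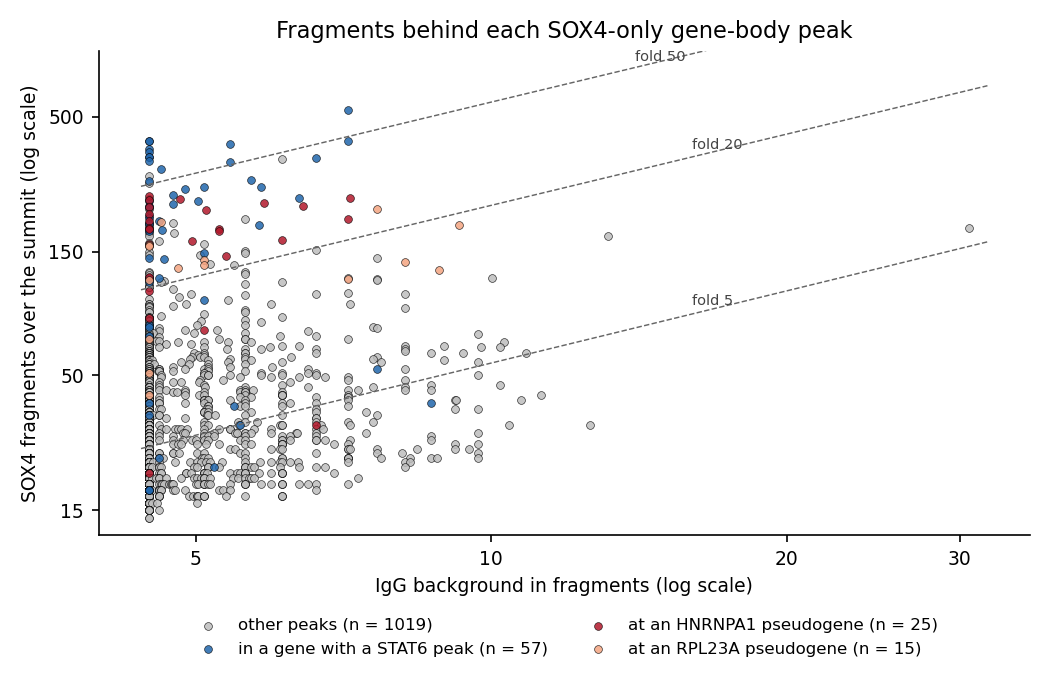
SOX4 fragments over the summit against the IgG background in fragments (log scales) for the 1116 gene-body peaks, coloured by group, with dashed lines of equal fold at 5, 20 and 50. Many points stand at the lowest background of 4.49 fragments, and the peaks in genes with a STAT6 peak and at HNRNPA1 pseudogenes have medians of 194 and 184 fragments against 32 for the other peaks.

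HNRNPA1 is an RNA-binding protein of splicing, and RPL23A is a protein of the large ribosomal subunit. Both have many processed pseudogenes, intronless copies made by reverse transcription of the mRNA. An annotated pseudogene was counted if its middle lay inside a protein-coding gene and more than 3000 bp from every protein-coding gene end. Of the 4977 counted, 53 were touched by a gene-body peak (1.06%). Among HNRNPA1 copies the count was 25 of 33 (75.8%, Wilson 95% interval 59.0% to 87.2%). Among RPL23A copies it was 15 of 34 (44.1%, 28.9% to 60.5%). Among all other pseudogenes it was 13 of 4910 (0.265%, 0.155% to 0.452%). Families were assigned by symbol, so a copy with a LOC name could not be counted for HNRNPA1 or RPL23A. Of the 99 families with at least 5 copies in gene bodies, 95 had none touched, and 2 had 2 or more.

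At HNRNPA1 copies the highest peak lay in DAB1, an adaptor of reelin signalling, at chr1:58047173-58048723 over HNRNPA1P6, with a fold of 45.2 and 247 fragments. It was followed by peaks in GAREM1, an adaptor of EGF receptor signalling (43.7-fold), HYCC2 (41.6-fold), SPIN1, a histone methyl-lysine reader (41.0-fold), SRR, the serine racemase (38.6-fold), and EEA1, a tether of early endosomes (36.3-fold). The lowest was in STIM1, a calcium sensor of the endoplasmic reticulum, over HNRNPA1P76, with a fold of 4.01 and 21 fragments. FMN1, a formin, came just above it at 4.32.

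At RPL23A copies the order began with RCOR1, the corepressor CoREST, over RPL23AP11 with a fold of 35.0. HSD17B12, an enzyme of fatty acid elongation, had 29.3 and CENATAC, a minor spliceosome factor, 29.0. The lowest peaks were in MANSC1 at 9.48 and FLYWCH1 at 7.84. The summits differed in where they fell on the copies. All 15 RPL23A summits lay inside the pseudogene, a median of 199 bp from its middle, whereas 11 of 25 HNRNPA1 summits lay inside, a median of 663 bp from the middle of copies with a median length of 1231 bp.

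Over the whole genome, gene bodies included, 64 of 75 placed HNRNPA1 pseudogenes (85.3%) and 62 of 95 placed RPL23A pseudogenes (65.3%) overlapped a SOX4 peak of any class, against 180 of 16881 other pseudogenes (1.07%). How reads that match several copies were treated is not given in the sources used here, so the assignment of these peaks to 1 copy is uncertain. Without the peaks at both families the median fold of the set was 5.59.

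The highest peaks outside these groups are given next, in genes picked after their values were seen. ANXA8, a phospholipid-binding annexin, held a peak at chr10:47967264-47968807 with a fold of 50.7. DDX59, an RNA helicase, followed at chr1:200665654-200667187 with 48.3 and 343 fragments, and ANK2, the membrane scaffold ankyrin-B, at chr4:112880906-112882324 with 43.9. A peak in GALNT10, which starts O-glycosylation, had a fold of 40.3 and touched HNRNPA3P7, the only 1 of 8 HNRNPA3 pseudogenes in gene bodies that was touched. TRPV2, a cation channel, had 35.2, RYR3, a calcium release channel, 34.0, and MAGI2, a junctional scaffold, 32.6. The MAGI2 peak also touched the locus LOC100421387 and the ANK2 peak LOC102723896, neither of them protein-coding. TRPV2 and RYR3 belong to the ion channel list described below, and MAGI2 to the list of fragile site genes. SYK, a kinase of immune receptor signalling, had 29.7. The nearest STAT6 peak lay 48.9 kb from the TRPV2 peak, 372 kb from the DDX59 peak and over 3 Mb from the peaks of ANXA8, ANK2, GALNT10, RYR3, MAGI2 and SYK.

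Peaks were spread thinly over genes. They fell in 929 of the 16139 protein-coding genes with body left after the 3000 bp margin (5.76%). Of the 929, 782 held 1 peak, 110 held 2 and 147 held 2 or more. Genes that held a peak had a median length of 178 kb, against 34.9 kb over all genes considered. The share of genes with a peak rose with length class, from 0.0552% under 10 kb, where 1 gene held a peak, to 1.04% at 10 to 30 kb, 4.25% at 30 to 100 kb, 13.7% at 100 to 300 kb and 36.9% over 300 kb.

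Per length no such rise was seen. The density was 0.978 peaks per Mb of gene body at 10 to 30 kb (Poisson 95% interval 0.755 to 1.25), 0.928 at 30 to 100 kb (0.816 to 1.05), 1.02 at 100 to 300 kb (0.925 to 1.13) and 0.996 over 300 kb (0.904 to 1.095). Genes of at least 100 kb had 1.08 times the density of shorter ones (0.951 to 1.23). The median fold also showed no steady order, at 6.83, 5.28, 6.04 and 5.44 over the same classes.

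**Figure D3:**
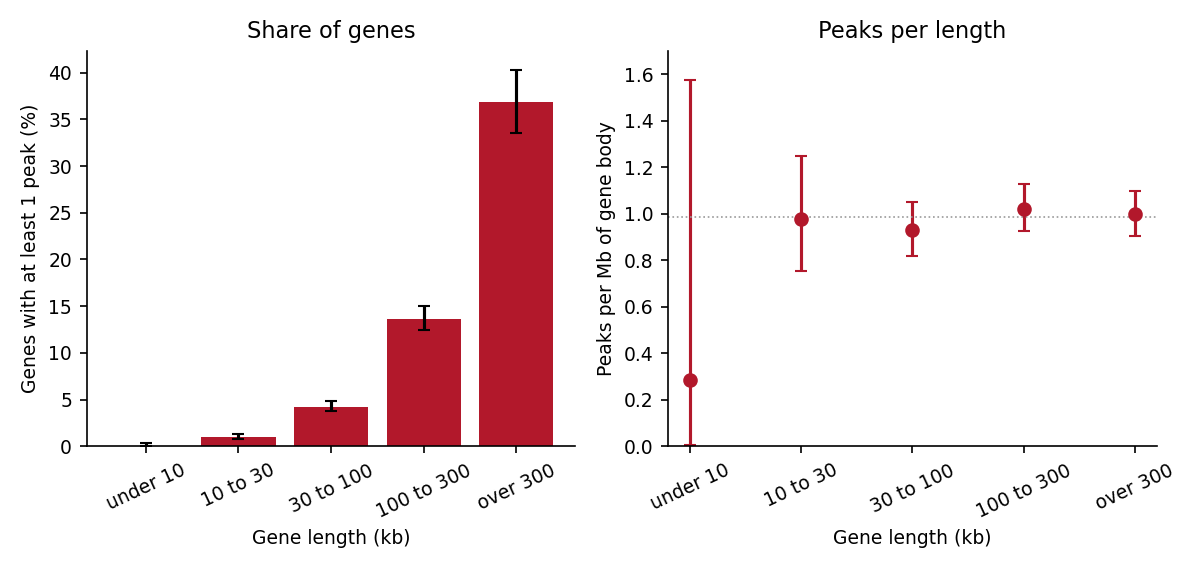
Left, share of protein-coding genes with at least 1 SOX4-only gene-body peak (%, Wilson 95% intervals) by gene length class in kb. Right, peaks per Mb of gene body (Poisson 95% intervals) in the same classes, with a dotted line at the value over all genes, 0.986. The share climbs to 36.9% in the longest genes while the density stays between 0.928 and 1.02 in every class above 10 kb.

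Along the gene the counts were highest in the 5′ parts. Strand could be assigned for 897 peaks. With each gene, less 3000 bp at either end, cut into 5 equal parts, the parts held, from the 5′ end, 202 (22.5%), 217 (24.2%), 162 (18.1%), 163 (18.2%) and 153 (17.1%) of them. The Wilson interval of part 2, the highest, 21.5% to 27.1%, lay above that of the last, the lowest, 14.7% to 19.7%. These intervals take peaks in the same gene as independent. The share of gene body left after the margin was not measured for each part. Median folds lay between 5.47 and 6.01 in all 5 parts, so height did not follow position.

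By chromosome the density ranged from 0.586 per Mb on chromosome 16 (0.358 to 0.905) to 1.31 on chromosome 19 (0.893 to 1.86), leaving out chromosome Y with 1 peak. The highest median folds were on chromosome 19 at 9.43, which holds the CYP4F genes, and on chromosome 12 at 9.20, which holds the SLCO1B genes and CACNA1C. Most peaks had no close neighbour in the set, though the share that even spacing would give was not computed. The median distance from a peak to the next in the set was 473 kb, and 102 peaks (9.14%) had another within 10 kb.

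The exceptions were clusters within single genes. The readthrough gene SLCO1B3-SLCO1B7 held 11 peaks with folds of 3.46 to 66.7, which were counted again in SLCO1B3 (6 peaks) and LOC124902894 (5 peaks) because the annotations overlap. It also held 8 STAT6 peaks. DPYD, the rate-limiting enzyme of pyrimidine breakdown and of 5-fluorouracil clearance, held 6 peaks beside 17 STAT6 peaks, and their folds of 28.1 to 44.1 were all high.

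CACNA1C, the pore subunit of the L-type calcium channel of heart and neurons, held 9 peaks with no STAT6 peak in the gene. The nearest was 3308 kb away. Their folds ran from 4.65 to 30.9 with a median of 16.3. In a gene of 727 kb they spanned 188 kb, between 70.9% and 96.8% of its length from the 5′ end. The highest, at chr12:2580997-2582278, had 177 fragments (152 to 205). The next 3 by coordinate, at chr12:2601278-2602537, chr12:2605100-2606334 and chr12:2607920-2609283, lay side by side with folds of 20.03, 16.3 and 22.98.

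Other genes with many peaks held no STAT6 peak. CTNNA3, an alpha-catenin of cell junctions, held 7 peaks with folds of 3.10 to 15.3 over 1851 kb. CCSER1 held 5 (3.93 to 17.1) and AGBL4, a tubulin deglutamylase, held 5 (2.86 to 11.7). RYR3, of 555 kb, held 5 with folds of 4.58 to 34.0, and ERBB4, a receptor tyrosine kinase of the EGF receptor family, held 4 with folds of 2.72 to 13.6.

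**Figure D4:**
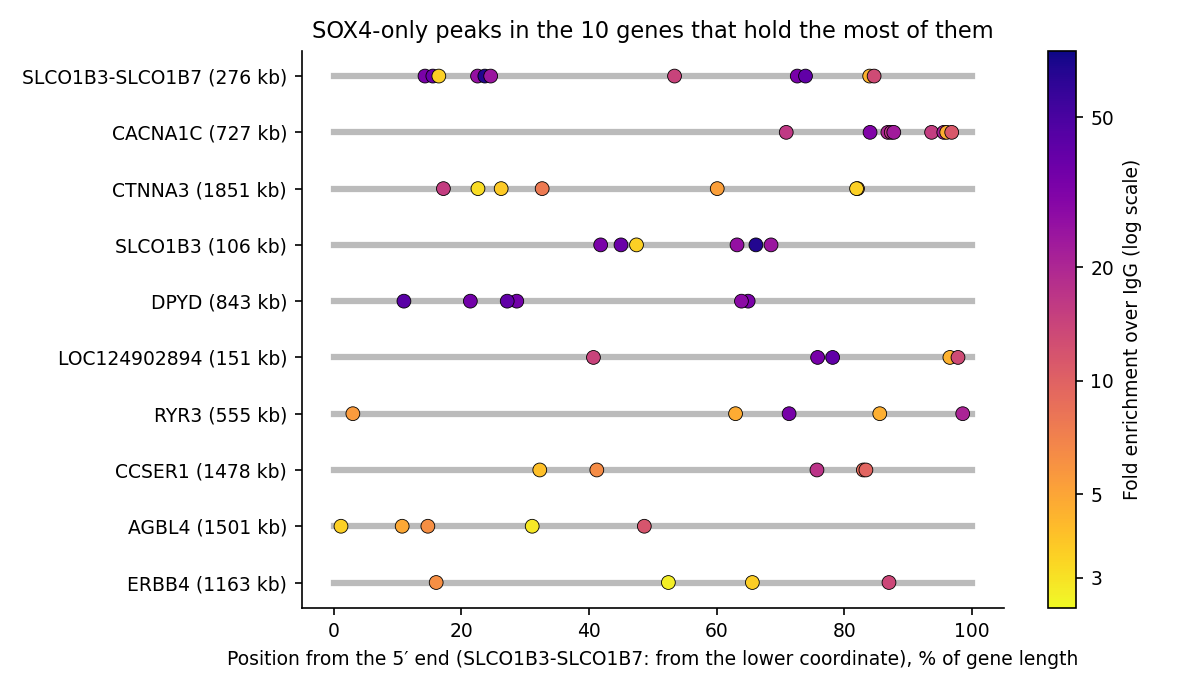
Positions of SOX4-only gene-body peaks in the 10 genes that hold the most (ERBB4 is 1 of 9 genes tied at 4 peaks, shown for its highest fold), as % of gene length from the 5′ end (from the lower coordinate for SLCO1B3-SLCO1B7), coloured by fold enrichment over IgG on a log scale. The 9 CACNA1C peaks sit between 70.9% and 96.8% of the gene, the 6 DPYD peaks all have folds of at least 28.1, and the CTNNA3, AGBL4 and ERBB4 peaks are scattered with folds of at most 15.3.

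STAT6 peaks were mostly far away. A STAT6 peak lay within 1 kb of 4 peaks, within 10 kb of 37 (3.32%) and within 1 Mb of 171 (15.3%), and the median distance was 5692 kb. The nearest, 922 bp, was at a small peak in CYP2C19, a P450 of drug clearance, with 18 fragments and a fold of 3.46. The CYP2C19 peak also touched the pseudogene MTND4P19. Next came a small SLCO1B3 peak at 944 bp, also with a fold of 3.46. The high peaks of CES1 (73.4-fold) and TRPA1 (65.3-fold) followed, each at 957 bp. The widest peak, 4036 bp, lay in CYP4F11 with a fold of 44.7. Of the 166 genes considered that held a STAT6 peak, 33 also held a SOX4-only gene-body peak (19.9%, against 5.76% over all genes). These shares were not matched for gene length, with which the share of genes with a peak rose.

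The 12 gene lists were read for how many of their genes held a peak, beside the 5.76% over all genes. As that share rose with gene length, the density was read as well, beside 0.986 peaks per Mb over all genes. The lists were chosen with earlier results of these data known. Their intervals take peaks as independent, although some lay clustered in the same gene. Of the drug metabolism and transport list, 11 of 49 genes held a peak (22.4%), with 6.89 peaks per Mb (4.41 to 10.2). The median over these genes of the highest fold was 44.1, and 25 of the 49 also held a STAT6 peak. SLCO1B3 and DPYD held 6 each of the list's 24 peaks. Beyond those named above, NAT1, an arylamine acetyltransferase, had 37.2. At the low end UGT2B7, a glucuronosyltransferase, had 9.19, the uptake transporter SLCO2B1 4.56 and CYP2C19 3.46.

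Ion channels and receptors held peaks in 8 of 29 genes (27.6%), with 3.43 peaks per Mb (1.87 to 5.75) and a median of the highest fold of 42.4. CFTR, TRPA1 and ASIC2 were followed by TRPV1, the capsaicin receptor, at 49.6. TRPV2 had 35.2 and RYR3 34.0, whereas RYR2, the cardiac release channel, had 4.10 and TRPV3 3.46. Of the 29 genes, 14 held a STAT6 peak. RYR3 held 5 of the list's 14 peaks.

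Folate metabolism held peaks in 4 of 23 genes (17.4%), with 3.27 peaks per Mb (0.892 to 8.38). GLDC, of the glycine cleavage system, had 21.5 at a peak over an RPL23A pseudogene. MTHFD1L, the mitochondrial enzyme that releases formate, had 9.11 with 49 fragments at 109 kb from a gene end. FTCD, of histidine breakdown, had 5.83. The interval of the density includes 0.986, and with a margin of 10000 bp the count of genes was 1 instead of 4.

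**Figure D5:**
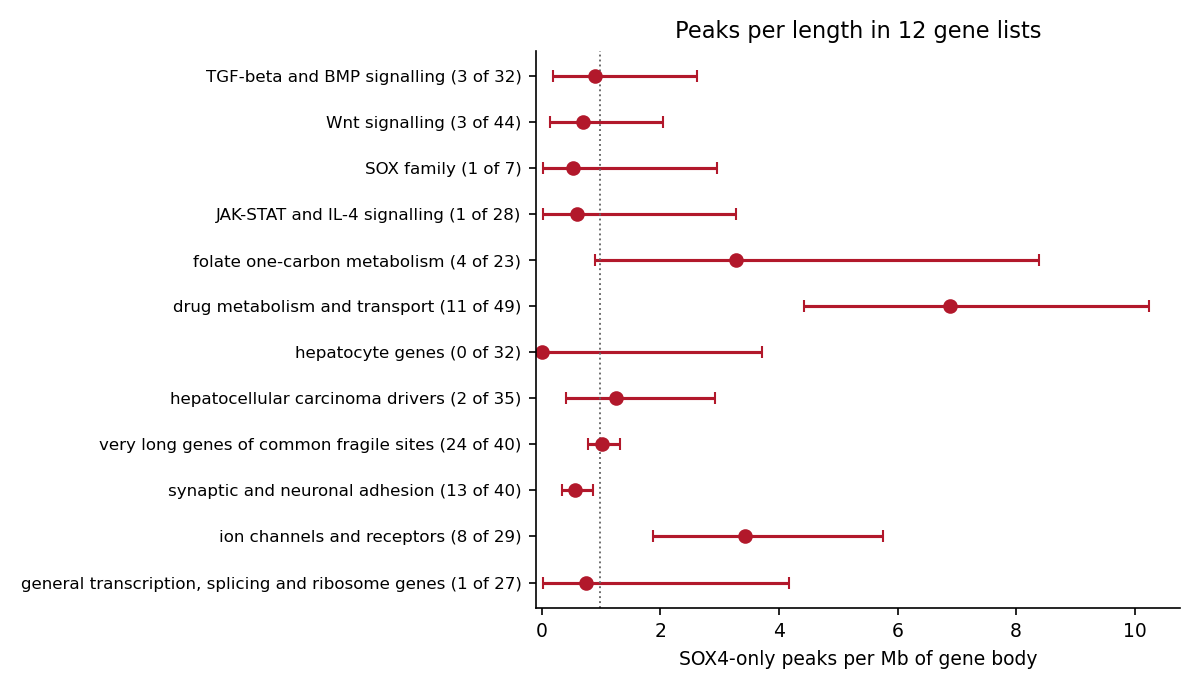
SOX4-only gene-body peaks per Mb of gene body in 12 gene lists (points, with Poisson 95% intervals), with the genes that hold a peak of the genes considered in brackets and a dotted line at 0.986 per Mb over all genes. The drug metabolism list at 6.89 and the ion channel list at 3.43 lie to the right of the line with their intervals, and the synaptic list at 0.555 lies to the left. The lists were chosen with earlier results known, and the intervals take peaks clustered in the same gene as independent.

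The signalling, liver, carcinoma and transcription lists had densities whose intervals included the 0.986 per Mb over all genes. TGF-beta and BMP signalling, through which SOX4 is known to be induced, held peaks in 3 of 32 genes (9.38%, 0.894 peaks per Mb), the co-receptor TGFBR3 (6.01-fold), LTBP1, which stores latent TGF-beta (4.47-fold), and the receptor TGFBR1 (3.44-fold). Wnt signalling held 3 of 44 (6.82%, 0.698 per Mb), the R-spondin receptor LGR5 (6.01-fold), RYK (5.83-fold) and the kinase TNIK (5.03-fold). The SOX family held 1 of 7 (0.529 per Mb), SOX6 at 5.83. JAK-STAT signalling held 1 of 28 (0.588 per Mb), JAK2 at 6.20. The summit of that peak also lay in INSL6, and the peak touched the pseudogene MTND5P36. Of 32 hepatocyte genes none held a peak, which allows a share of up to 9.38% (3 counts of 32). Drivers of hepatocellular carcinoma held 2 of 35 (1.25 per Mb), ERBB4 at 13.6 and the histone methyltransferase KMT2C at 3.07. ERBB4 held 4 of the 5 peaks of that list. General transcription, splicing and ribosome genes held 1 of 27 (0.749 per Mb), CDK7 at 9.48.

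Very long genes of common fragile sites, where DNA breaks under replication stress, held peaks in 24 of 40 (60.0%), and synaptic adhesion genes in 13 of 40 (32.5%). Per length the fragile site genes had 1.02 peaks per Mb (0.775 to 1.32), near the value over all genes. The synaptic genes had 0.555 (0.334 to 0.866), below it. By count of genes the reading differed. From the share of genes with a peak in each length class, 14.7 fragile site genes and 12.8 synaptic genes would hold one. The 24 fragile site genes lay above this and the 13 synaptic genes close to it. The class over 300 kb has no upper limit, and the median lengths were 1392 kb and 891 kb. These classes therefore match length only in part. Named fragile site genes were DAB1, DPYD, MAGI2 and EYS, a protein of photoreceptors (16.5-fold), and named synaptic genes were OPCML (13.1-fold), NRXN3 (12.03-fold), PTPRD (10.0-fold) and ROBO2 (9.11-fold). The lists overlapped. NRXN3, PTPRD and ROBO2 were also in the fragile site list, as were ERBB4 of the carcinoma drivers and DPYD of the drug list.

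Noncoding genes overlapped some of the set. The summit lay in an annotated long noncoding RNA for 75 peaks (6.72%) and in a pseudogene for 29. It lay in a noncoding gene or pseudogene of any kind for 102 (9.14%). No summit lay in a microRNA, small nucleolar or small nuclear RNA gene, and a count of 0 among 1116 peaks allows a share of up to 0.269% (3 counts of 1116; the Wilson upper limit is 0.343%).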

How the data were processed

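CUT&RUN libraries for SOX4, STAT6 and IgG were made from Hep3B cells, with 1 library each. The submitters' processing notes name BWA, Partek and build hg38, and versions, peak threshold and treatment of multiply matching or duplicate reads are not given in the sources used here. The authors deposited a SOX4 and a STAT6 peak list called against IgG, in which each peak has a fold enrichment over IgG (a ratio), a −log10 p and a −log10 q, and a score that was not used. No read totals were used. From the deposited fold, (k + 1)/(b + 1), and −log10 p, the Poisson upper tail above k at background b, the whole fragment count k and background b were solved, and each peak matched its −log10 p within 0.003%. The procedures were tested on simulated data.

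Summits were placed on RefSeq genes of GRCh38.p14, whose table holds gene ends. Strand came from RefSeq promoter sequences (79.0% of protein-coding genes), which also gave the sequences. Peaks were shared at 1 bp of overlap. Shares have Wilson intervals, counts and densities exact Poisson intervals, and medians order-statistic intervals, all at 95%. Ratios of medians were bounded by the ends of both intervals. No test was run.

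The members and lists were chosen with earlier results of these data known. Genes named were the 12 highest folds, the 10 genes with most peaks, up to 4 genes per list, the 3 lowest and highest q, the 2 peaks on each side of the margin, the 3 nearest STAT6 and the 3 widest. The pseudogene groups, the genes highest outside them, list genes beyond 4, and the promoter windows were chosen after their values were seen. Alternatives were floors on q and fold, margins of 1000 and 10000 bp, a 1000 bp gap to STAT6 peaks, chromosomes, the whole peak inside the gene, the measure, single assignment, and merging within 10 kb. Motif measures around the summits and exon measures were not run. Some list genes that the rule names are not reported here. Python 3.11.15, numpy 2.4.6, pandas 2.3.3, scipy 1.17.1 and matplotlib 3.10.9 were used.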

Additional observations from a re-analysis of the deposited data

How the results depend on the processing

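Over 12 results and 59 alternatives, 47 values stayed within the counting interval, or within 1.5 times for counts, 12 moved beyond it. With peaks of a −log10 q of at least 5, the median fold was 6.84, the median width 986 bp and the share of genes with a peak 4.63%. With a fold of at least 5, the peaks numbered 644, their median width was 1075 bp, they fell in 575 genes (3.56%), 61 genes held 2 or more, and 43 listed genes held one instead of 65. With a margin of 10000 bp the share of SOX4 peaks was 21.4% and the share of genes 7.39%. Measured by −log10 q instead of fold, the ratio of medians to peaks outside genes was 1.31. Leaving out peaks at HNRNPA1 and RPL23A pseudogenes, an alternative added after seeing the data, gave a median fold of 5.59 and a ratio of 1.13. The ratio to peaks near gene ends, whose interval includes 1, passed from 1.14 to 0.988 with the floor on q and to 0.989 with a margin of 1000 bp. Of 36 values for single lists, 6 moved: with a fold of at least 5, TGF-beta and BMP from 3 to 1 gene, fragile site genes from 24 to 14 and synaptic genes from 13 to 8, with either floor carcinoma drivers from 2 to 1, and with a margin of 10000 bp folate genes from 4 to 1. No paired analysis was possible because SOX4 and STAT6 were profiled in a single library each. The alternatives for motifs and exons were not run. Peaks with fewer than 14 fragments are absent from the SOX4 list, which limits what could be seen.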
